A study of Mus musculus with 15 samples.

Results

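Apolipoprotein E and the genes that move cholesterol and phospholipid out of cells, together with the liver X receptors (LXRs) that control many of them, were followed in mouse embryonic stem cells depleted of Tet1 or Sin3A. The list held 10 genes, chosen by symbol for their place in lipid efflux and in lipoprotein uptake: Apoe, Apoc1, Apoa1, Abca1, Abcg1, Nr1h2, Nr1h3, Mylip, Lrp1 and Lrp2. The list was drawn up around Apoe, whose lower level with both Tet1 hairpins was already known from these arrays, so the Tet1 values of Apoe are given as a description with no test. The annotation used here named a probe set for 9 of the 10 genes, each with 1 probe set, among 21212 probe sets and 18784 genes. Nr1h2, which encodes LXR beta, was not analysed here.

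LXR alpha, encoded by Nr1h3, and LXR beta are nuclear receptors that sense oxidised cholesterol and bind DNA with a retinoid X receptor. Their classical targets include the transporters ABCA1 and ABCG1, which load cholesterol and phospholipid onto apolipoproteins, the apolipoproteins of the Apoe and Apoc1 cluster, and Mylip, a ubiquitin ligase that sends receptors of the low-density lipoprotein (LDL) receptor family for degradation. Particles that carry apolipoprotein E are taken up by that receptor family, to which LRP1 and LRP2 belong. TET1 oxidises 5-methylcytosine in DNA, and SIN3A is the scaffold of a histone deacetylase complex that can associate with TET1.

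The data are 15 Affymetrix arrays of messenger RNA from E14TG2a.4 cells, a feeder-independent mouse embryonic stem cell line, in 5 groups of 3 arrays. A Tet1 set of 9 arrays held cells with a scrambled short hairpin RNA (shRNA), with Tet1 shRNA 4 or with Tet1 shRNA 5, and a Sin3A set of 6 arrays held cells with a Sin3A shRNA or with a scrambled shRNA of that set. All cells were at passage 17, grew on gelatin with leukaemia inhibitory factor (LIF), received their hairpin on a pLKO.1 lentivirus and were selected with 2 µg of puromycin per ml for 72 h, beginning 36 h after transduction. Nothing in the labels ties the 3 arrays of a group to separate cultures or transductions, so every p-value here is set against array-to-array spread that may be technical.

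Tet1 was 3.43-fold lower with shRNA 4 and 4.30-fold lower with shRNA 5, and Sin3a was 2.93-fold lower with its own hairpin. Each target also differed with the other hairpins: Sin3a changed by -0.27 and -0.24 log2 units with Tet1 shRNA 4 and 5, and Tet1 was higher by 0.31 with the Sin3A shRNA. Replicate arrays correlated at 0.994 to 0.998 over all probe sets. Array means lay between 7.08 and 7.11 log2 units in the Tet1 set and at 8.09 in the Sin3A set, so a level of one set is not comparable with a level of the other and each knockdown was read against the scrambled arrays of its own set. Of 12 stem cell markers, all 12 lay above the median probe set in the scrambled arrays of both sets. Their array means ranged from 11.73 to 11.85 in the Tet1 set and from 12.25 to 12.30 in the Sin3A set. Of the 12, 2 were higher and 1 lower with both Tet1 hairpins (limma, adjusted p under 0.05). The shares over all probe sets were 5.4% and 3.4%. With the Sin3A shRNA 1 was higher and 1 lower, where 12.2% and 12.6% of all probe sets were. All 9 macrophage markers, a cell type known for LXR activity, lay below the median probe set. In the Tet1 set 7 of them lay in the lowest 25% of probe sets.

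The promoter regions of Apoe, Abca1 and Lrp1 are shown because the first 2 genes were lower and the third was higher with both Tet1 hairpins. Each line is the 250 bases before a RefSeq transcription start (build GRCm38.p6), read 5′ to 3′ on the strand of the gene, with CG dinucleotides, the sites where cytosine can be methylated and then oxidised by TET enzymes, in capitals. The Apoe region lies at chr7:19699189-19699438, the Abca1 region at chr4:53159896-53160145 and the Lrp1 region at chr10:127621149-127621398, all on the minus strand.
Apoe: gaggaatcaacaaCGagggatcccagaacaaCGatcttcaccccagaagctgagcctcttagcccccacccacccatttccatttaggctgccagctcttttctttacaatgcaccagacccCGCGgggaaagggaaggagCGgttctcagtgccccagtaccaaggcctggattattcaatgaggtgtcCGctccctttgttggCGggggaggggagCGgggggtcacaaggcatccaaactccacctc
Abca1: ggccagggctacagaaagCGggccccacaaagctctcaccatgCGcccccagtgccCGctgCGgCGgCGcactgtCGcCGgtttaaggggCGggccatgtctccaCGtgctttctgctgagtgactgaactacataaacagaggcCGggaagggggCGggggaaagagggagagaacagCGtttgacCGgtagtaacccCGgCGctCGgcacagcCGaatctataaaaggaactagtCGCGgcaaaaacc
Lrp1: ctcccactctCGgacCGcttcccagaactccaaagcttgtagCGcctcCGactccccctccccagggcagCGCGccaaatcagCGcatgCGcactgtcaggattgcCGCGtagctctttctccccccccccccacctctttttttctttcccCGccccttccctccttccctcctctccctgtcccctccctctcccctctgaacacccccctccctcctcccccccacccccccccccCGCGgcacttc
The Apoe region held 8 CG dinucleotides, more than 57.0% of 32841 RefSeq promoter regions of that length, whose median was 6; the other annotated starts of Apoe had 9 and 10. The Abca1 region held 20, more than 82.0% of regions, and the Lrp1 region held 13, more than 68.5%. Of the other genes, Mylip had 23, Lrp2 had 18, Apoa1 had 4 and the starts of Nr1h3 had 7 and 8. An LXR site is a direct repeat of AGGTCA separated by 4 bases, written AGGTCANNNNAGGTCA, and it was searched on both strands with at most 3 of its 12 fixed letters different. The Abca1 region alone of the member regions held such a match, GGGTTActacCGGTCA with both repeats in capitals, on the strand opposite to the gene and 51 bases from the start. A match of this kind occurred in 18.5% of all the regions, and the letters TATAAA, which Abca1, Mylip and start 2 of Apoe also held, in 12.4%. A match is a description of the letters and not evidence of binding.

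The first comparison asked which lipid efflux genes differed from the scrambled control in cells depleted of Tet1. Apoe, Apoc1 and Abca1 were lower with both hairpins, Lrp1 was higher with both, and Apoa1, Abcg1 and Nr1h3 passed the test with neither. Mylip and Lrp2 were each higher with 1 hairpin. Of the 8 genes other than Apoe, 2 passed as higher and 2 as lower with shRNA 4 (adjusted p under 0.05 in a limma fit over all probe sets), where 6.88% of all probe sets passed as higher and 4.71% as lower. With shRNA 5 the counts were again 2 higher and 2 lower, against 8.37% and 5.46% of all probe sets. Both hairpins together gave 1 higher and 2 lower, against 5.4% and 3.4%. The p-values of these 8 genes do not allow for how the list was chosen.

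The LXR gene Nr1h3 did not pass with either Tet1 hairpin. Its levels were 6.21, 6.21 and 6.08 in the scrambled arrays, 6.21, 6.29 and 6.04 with shRNA 4, and 6.45, 6.15 and 6.23 with shRNA 5. The groups overlapped, and the differences from scrambled were 0.01 (95% interval -0.20 to 0.22) and 0.11 (-0.10 to 0.32), with adjusted p = 0.958 and 0.541. Its scrambled mean stood at percentile 36.6 of all probe sets in the Tet1 set.

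Abca1, the transporter that begins the transfer of cholesterol to lipid-poor apolipoproteins, was lower with both hairpins. It read 8.79, 8.56 and 8.76 in the scrambled arrays, 7.85, 8.00 and 7.81 with shRNA 4, and 7.74, 7.87 and 7.90 with shRNA 5. Every knockdown array lay below every scrambled array. Abca1 fell by 0.82 ± 0.08 (SE) log2 units, or 1.77-fold, with shRNA 4 and by 0.87 ± 0.08, or 1.83-fold, with shRNA 5 (limma, adjusted p = 0.000215 and 0.000159). Abcg1, which passes cholesterol on to particles that already hold lipid, passed with neither hairpin. Its arrays read 8.44, 8.51 and 8.54 with the scrambled hairpin, 8.78, 8.79 and 8.58 with shRNA 4, and 8.48, 8.43 and 8.48 with shRNA 5. The shRNA 4 arrays of Abcg1 lay above the scrambled ones by 0.22 ± 0.07 (adjusted p = 0.0714), and those of shRNA 5 overlapped them with a difference of -0.03 ± 0.07. Without shRNA 4 replicate 3 the first difference was 0.29 and passed (adjusted p = 0.0253), as it did with all 15 arrays in 1 fit (0.017).

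The apolipoproteins divided in the same way as the transporters, with some lower and some not called. The scrambled mean of Apoe stood at percentile 99.1 of all probe sets in the Tet1 set, and at 98.7 in the Sin3A set. Its arrays read 12.05, 12.28 and 12.32 with the scrambled hairpin, 11.51, 11.63 and 11.36 with shRNA 4, and 11.06, 10.99 and 11.05 with shRNA 5. The 3 groups did not overlap: shRNA 5 was lowest, shRNA 4 lay between, and the scrambled arrays were highest. The difference from scrambled was -0.72 ± 0.09 with shRNA 4, a 1.64-fold lower level, and -1.18 ± 0.09 with shRNA 5, a 2.27-fold lower level.

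Apoc1 encodes a small apolipoprotein that slows the uptake of lipoproteins, and the gene lies next to Apoe. It read 8.21, 8.65 and 8.38 in the scrambled arrays, 7.65, 7.79 and 7.84 with shRNA 4, and 7.63, 7.65 and 7.64 with shRNA 5. No knockdown array reached the scrambled range. Apoc1 fell by 0.65 ± 0.10, or 1.57-fold, and by 0.77 ± 0.10, or 1.71-fold (adjusted p = 0.00288 and 0.00107). Apoa1, the main apolipoprotein of high-density lipoprotein and the usual acceptor for ABCA1, read 6.41, 6.75 and 6.45 with the scrambled hairpin, 6.26, 6.55 and 6.44 with shRNA 4, and 6.41, 6.28 and 6.41 with shRNA 5. Its groups overlapped, with differences of -0.12 (-0.35 to 0.12) and -0.17 (-0.41 to 0.06) and limma adjusted p = 0.579 and 0.366. The scrambled mean of Apoa1 lay below the median probe set, at percentile 43.2 in the Tet1 set and 48.7 in the Sin3A set. That of Apoc1 stood at percentile 71.1 in the Tet1 set.

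Lrp1 moved the other way. The gene encodes a large endocytic receptor for apolipoprotein E. It read 8.96, 9.05 and 9.13 in the scrambled arrays, 9.83, 9.72 and 9.72 with shRNA 4, and 9.52, 9.52 and 9.59 with shRNA 5. The 3 groups did not overlap, and shRNA 4 was highest. Lrp1 rose by 0.71 ± 0.06, or 1.64-fold, and by 0.50 ± 0.06, or 1.41-fold (adjusted p = 0.000116 and 0.000853). Lrp2 encodes megalin, the receptor of absorptive epithelia and of embryonic endoderm. Its arrays read 9.35, 9.20 and 9.37 with the scrambled hairpin, 9.25, 9.30 and 9.37 with shRNA 4, and 9.48, 9.58 and 9.65 with shRNA 5. Only the shRNA 5 arrays lay above the scrambled range, with a difference of 0.26 ± 0.07 (adjusted p = 0.0374), against 0.00 ± 0.07 with shRNA 4. Leaving out any of 7 of the 9 arrays of the set ended that call, with limma adjusted p from 0.0504 to 0.134 and differences from 0.21 to 0.29. Those were all 3 scrambled arrays, replicates 1 and 2 of shRNA 4, and replicates 2 and 3 of shRNA 5.

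Mylip read 7.55, 7.56 and 7.73 in the scrambled arrays, 7.97, 7.89 and 7.97 with shRNA 4, and 7.73, 7.65 and 7.88 with shRNA 5. The shRNA 4 arrays lay above the scrambled ones and the shRNA 5 arrays overlapped them. The difference was 0.33 ± 0.08 with shRNA 4 (adjusted p = 0.0222) and 0.14 ± 0.08 with shRNA 5 (adjusted p = 0.309). The call with shRNA 4 did not survive the removal of scrambled replicate 1 or 2, or of replicate 1 or 3 of shRNA 4 (adjusted p from 0.0539 to 0.0815).

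**Figure D1:**
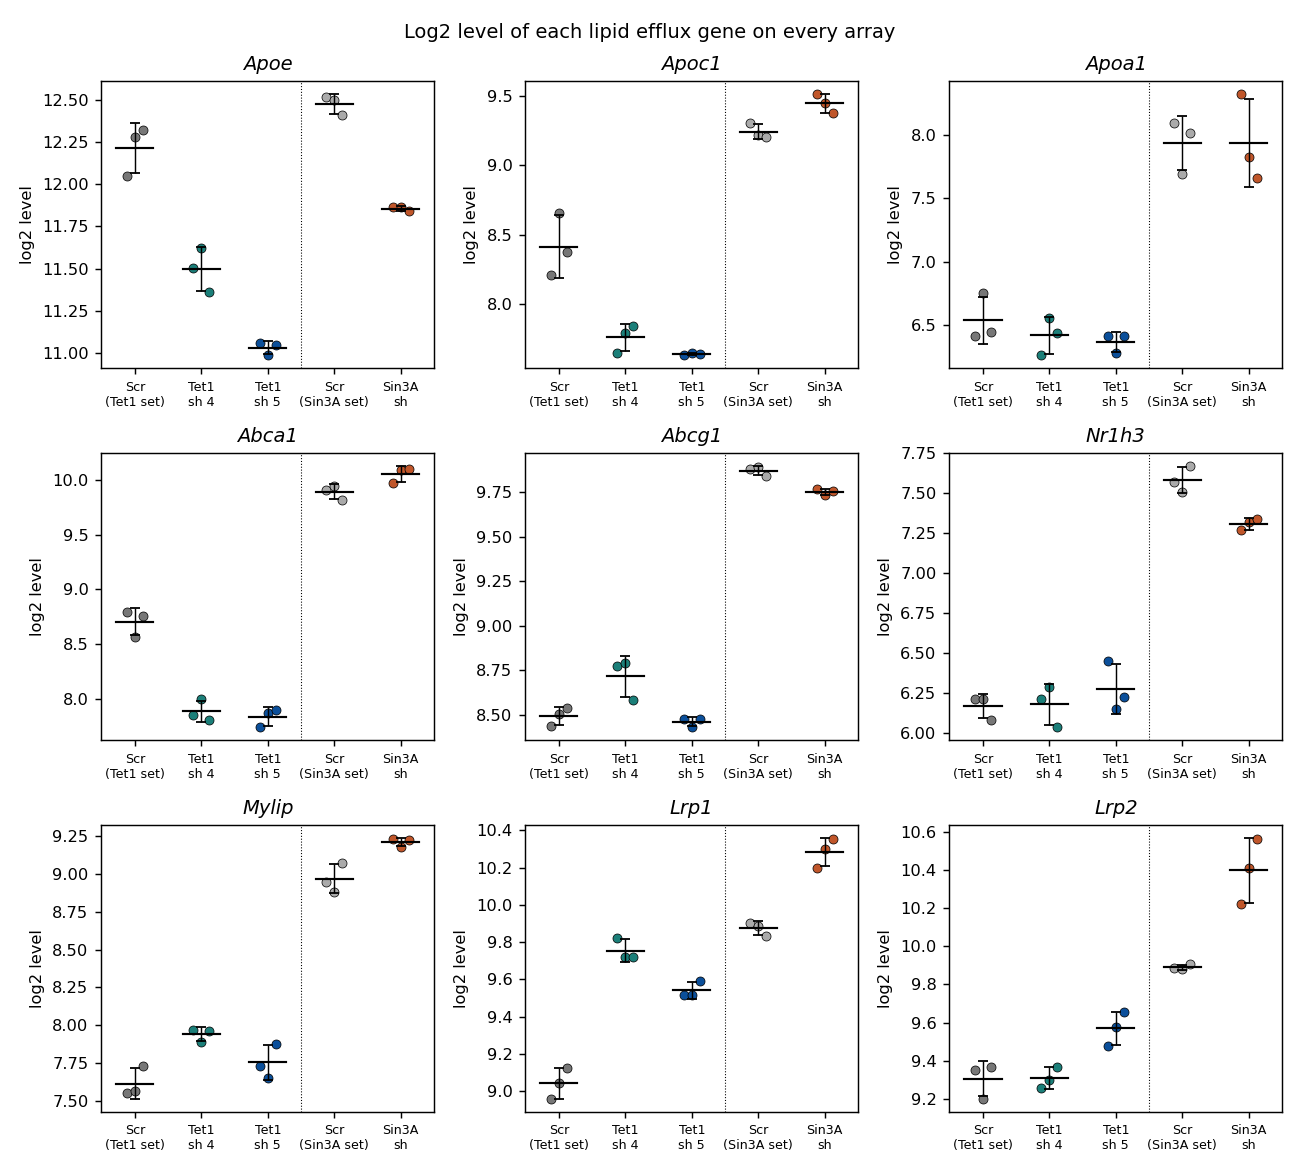
Log2 level (y axis) of the 9 genes on every array, with 1 panel per gene and the 5 groups along the x axis. Points are arrays, horizontal lines are group means, bars are SD (n = 3), the dotted line separates the 2 sets, and the y axes do not start at 0. Apoe, Apoc1 and Abca1 sit below their scrambled arrays with both Tet1 hairpins, Lrp1 sits above them, and with the Sin3A hairpin Apoe alone of those first 3 sits below.

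The second comparison asked whether the 2 Tet1 hairpins differed from each other. None of the 8 genes other than Apoe passed (limma, adjusted p under 0.05), where 0.141% of all probe sets passed in either direction; 4 of the 8 had an unadjusted p under 0.05. As a description, Apoe with shRNA 5 stood at -0.46 (95% interval -0.66 to -0.26) from its level with shRNA 4, and the 3 arrays of each hairpin did not overlap. Abca1 differed by -0.05 (-0.23 to 0.14) and Apoc1 by -0.12 (-0.35 to 0.11). For Lrp1 the difference was -0.21 (-0.36 to -0.07; adjusted p = 0.323), for Abcg1 -0.25 (-0.41 to -0.10; adjusted p = 0.265) and for Lrp2 0.26 (0.10 to 0.42; adjusted p = 0.269). Mylip differed by -0.19 (-0.36 to -0.02), Nr1h3 by 0.10 and Apoa1 by -0.05.

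The third comparison asked the same of Sin3A depletion. Apoe and Nr1h3 were lower, and Lrp1, Lrp2, Mylip and Apoc1 were higher. Of the 8 genes other than Apoe, 4 passed as higher and 1 as lower, where 12.2% and 12.6% of all probe sets did. The p-values of the 9 genes in this comparison do not allow for how the list was chosen.

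Apoe fell in all 3 Sin3A arrays. It read 12.52, 12.50 and 12.41 with the scrambled hairpin and 11.86, 11.86 and 11.84 with the Sin3A hairpin. The groups did not overlap, and the fall was 0.62 ± 0.05, or 1.53-fold (limma, adjusted p = 0.000208). Abca1 did not pass: it read 9.92, 9.95 and 9.82 against 9.97, 10.10 and 10.10, a difference of 0.16 (0.02 to 0.30; adjusted p = 0.0924). The Abca1 groups did not overlap, and without Sin3A replicate 1 the difference was 0.20 and passed (adjusted p = 0.0495). Apoc1 read 9.30, 9.22 and 9.20 against 9.51, 9.45 and 9.37 and rose by 0.20 ± 0.06, or 1.15-fold (adjusted p = 0.0344). That call was lost in 7 of 12 alternatives: without any 1 of 5 of the 6 arrays, all but Sin3A replicate 3, where adjusted p lay between 0.0504 and 0.109, with all 15 arrays in 1 fit (0.134) and with a replicate block (0.0537). Apoa1 read 8.10, 7.69 and 8.01 against 8.32, 7.83 and 7.66, with a difference of 0.00 (-0.40 to 0.40), the widest interval of the 9 genes.

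Nr1h3 fell with the Sin3A hairpin from 7.57, 7.50 and 7.67 to 7.27, 7.32 and 7.34, a change of -0.27 ± 0.06 (adjusted p = 0.0116). Abcg1 read 9.88, 9.89 and 9.84 against 9.77, 9.73 and 9.76. The Abcg1 groups did not overlap, but the difference of -0.12 ± 0.05 did not pass (adjusted p = 0.106).

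Both receptors rose with the Sin3A hairpin. Lrp1 went from 9.90, 9.89 and 9.83 to 10.20, 10.30 and 10.35, a rise of 0.41 ± 0.06, or 1.33-fold (adjusted p = 0.00179). Lrp2 went from 9.89, 9.88 and 9.91 to 10.22, 10.41 and 10.56, a rise of 0.51 ± 0.08, or 1.42-fold (adjusted p = 0.0037). The Sin3A arrays of Lrp2 spread more widely than its scrambled arrays, whose SD was 0.01. Mylip went from 8.95, 8.88 and 9.07 to 9.23, 9.18 and 9.22, a rise of 0.24 ± 0.06 (adjusted p = 0.0235). Without any 1 of 5 of the 6 arrays, all but scrambled replicate 3, the Mylip call was lost (adjusted p from 0.0571 to 0.0785).

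**Figure D2:**
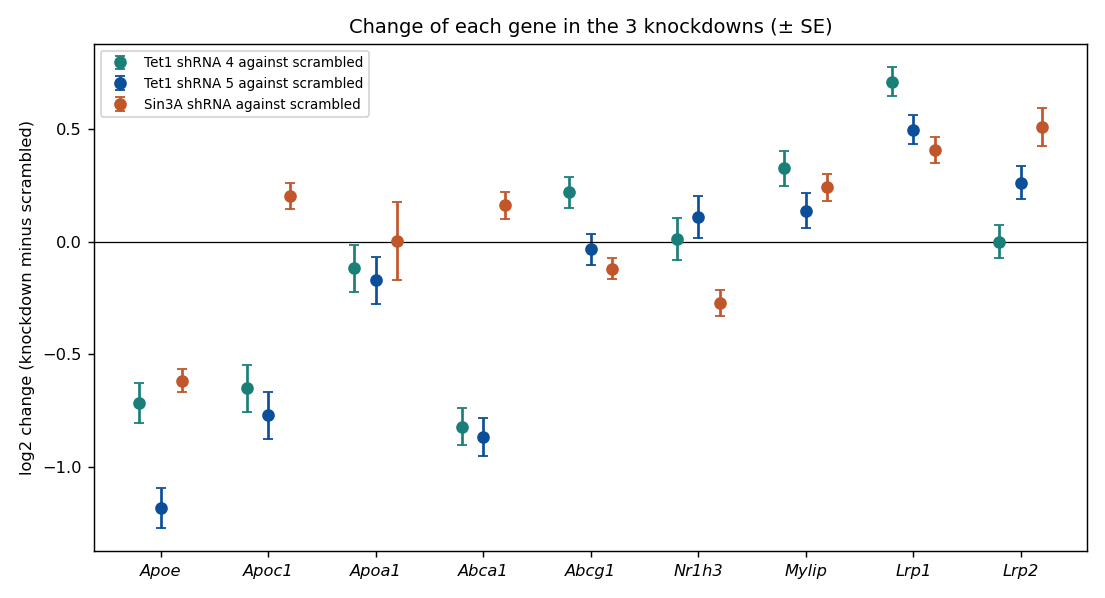
Log2 change (y axis, knockdown minus the scrambled mean of the same set) of the 9 genes (x axis) with Tet1 shRNA 4, Tet1 shRNA 5 and the Sin3A shRNA; bars are SE from the limma fits. All 3 knockdowns of Apoe lie below 0 and all 3 of Lrp1 above it, whereas Abca1 and Apoc1 lie below 0 with the Tet1 hairpins and slightly above it with the Sin3A hairpin.

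The fourth comparison set the mean effect of the Tet1 hairpins against that of the Sin3A hairpin, each taken within its own set, and tested the difference. Of the 8 genes other than Apoe, 1 passed with a higher Tet1 effect and 3 with a lower one, where 11.3% and 8.71% of all probe sets did. Abca1 differed most, by -1.01 (-1.22 to -0.79; adjusted p = 7.57e-06), and Apoc1 by -0.91 (-1.17 to -0.66; adjusted p = 7.88e-05); both passed in all 21 alternatives. For Apoe, which fell in all 3 knockdowns, the effects differed by -0.33 (-0.55 to -0.12), a description that rests in part on the values for which the gene was chosen. Lrp2 differed by -0.38 (adjusted p = 0.0198), and the call was lost without scrambled replicate 3 of the Tet1 set (-0.35; adjusted p = 0.0531) or without Sin3A replicate 3 (-0.30; adjusted p = 0.056). Nr1h3 differed by 0.33 (adjusted p = 0.0442), a call lost in 12 of 21 alternatives, including 11 of the 15 that left out 1 array (adjusted p from 0.05 to 0.115): all but replicate 2 of each scrambled group, replicate 3 of shRNA 4 and replicate 2 of shRNA 5. Lrp1 differed by 0.20 (0.03 to 0.37; adjusted p = 0.105), Abcg1 by 0.21 (0.05 to 0.38; adjusted p = 0.0682), Mylip by -0.01 (-0.21 to 0.19) and Apoa1 by -0.15 (-0.58 to 0.28). The sets also differ in their arrays and scale, which cannot be told apart from the hairpins in this comparison.

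The 9 genes varied in several ways over the 15 arrays once each array was set against the scrambled mean of its set. Pearson's r was 0.93 for Apoc1 with Abca1, 0.72 for Apoe with Abca1 and 0.71 for Apoe with Apoc1. It was -0.80 for Apoe with Lrp1 and 0.84 for Mylip with Lrp1, and near 0 for Apoe with Abcg1 (0.01). These coefficients describe 15 arrays that share 2 scrambled references and fall into groups, and they carry no p. Among 1830 named genes (those with a Gm or Rik symbol left out) whose change reached 0.5 log2 units in at least 1 knockdown, Pltp followed Apoe most closely (r = 0.990), then P2rx7 (0.983), Ano9 (0.982), Ctsa (0.980) and Cd59a (0.978). Abca1 stood at place 283 and Apoc1 at place 303 of that order. The genes most opposite to Apoe were Ldoc1 (-0.981), Dynll2 (-0.979), Slc25a15 (-0.979), Bin1 (-0.968) and Tgm1 (-0.967).

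Pltp encodes the phospholipid transfer protein of lipoproteins and is a classical LXR target. It read 10.73, 10.84 and 10.83 in the scrambled arrays, 10.20, 10.16 and 10.07 with shRNA 4, and 9.55, 9.56 and 9.64 with shRNA 5. As for Apoe, the groups did not overlap and shRNA 5 was lowest. Pltp fell by 0.66 ± 0.06 and 1.22 ± 0.06, and shRNA 5 stood at -0.56 ± 0.06 from shRNA 4. These are descriptions, since likeness to Apoe over the same arrays singled the gene out. In the Sin3A set it went from 11.11, 11.16 and 11.09 to 10.58, 10.46 and 10.44, a fall of 0.63 ± 0.06, while Apoe fell by 0.62. Pltp and Ctsa are neighbours in the RefSeq gene order, and Ctsa changed by -0.28, -0.53 and -0.28 in the 3 knockdowns.

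The genes on either side of Apoe did not share one pattern. In RefSeq order they run Relb, Clptm1, Apoc2, Apoc4, Apoc1, Apoe, Tomm40, Nectin2, Bcam, Cblc and Bcl3, with Gm44805 between Clptm1 and Apoc2. Of 9 neighbours other than Apoc1, 3 passed with shRNA 4 and 2 with shRNA 5, each as lower, where 4.71% and 5.46% of all probe sets did. The median change of the neighbours was -0.16 with shRNA 4 and -0.09 with shRNA 5, beside 0.00 for all probe sets with each. The genes closest to the pair, Apoc4 and Tomm40, did not pass: Apoc4 had -0.24 ± 0.16 and -0.09 ± 0.16, and Tomm40, which encodes a mitochondrial import channel, -0.02 ± 0.06 and 0.05 ± 0.06. Bcam, a laminin receptor gene, changed by -0.64 and -0.47, and Relb, an NF-kappaB subunit gene, by -0.41 and -0.37. Bcam passed with shRNA 5 at adjusted p = 0.0242 but not without scrambled replicate 2 or any array of shRNA 5 (0.0529 to 0.0908). Relb passed at 0.0252 and 0.0368, calls lost on leaving out 3 and 5 of the 9 arrays (up to 0.0906 and 0.13), scrambled replicates 2 and 3 among them in each case, with shRNA 4 replicate 3 for the first and any shRNA 5 array for the second. With the replicate number as a block in a fit of the scrambled and shRNA 4 arrays, Relb and Cblc did not pass with shRNA 4 (limma, adjusted p = 0.0537 and 0.0584). Cblc had -0.41 with shRNA 4 (adjusted p = 0.0227), lost without scrambled replicate 3 or any array of shRNA 4 (0.0589 to 0.072), and -0.26 with shRNA 5. With the Sin3A shRNA, Tomm40 changed by -0.25 (adjusted p = 0.0166; 0.0501 without Sin3A replicate 2) and Bcl3 by 0.18 (adjusted p = 0.0425, lost on leaving out any array, with up to 0.129), and the other 7 did not pass, where 12.6% of all probe sets passed as lower and 12.2% as higher.

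**Figure D3:**
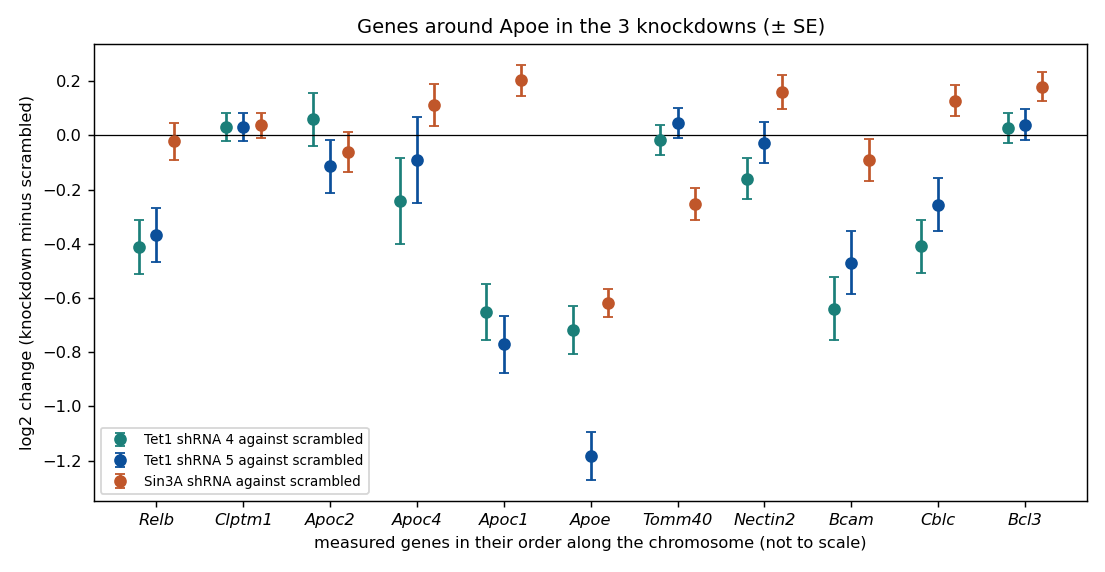
Log2 change (y axis, knockdown minus scrambled) of Apoe, Apoc1 and the 9 measured neighbours in chromosomal order (x axis, not to scale), for the 3 knockdowns; bars are SE. Apoe and Apoc1 stand lowest with the Tet1 hairpins between Apoc4 and Tomm40, which did not pass. With shRNA 4, Bcam (-0.64) stands about as low as Apoc1 (-0.65). Only Apoe is far below 0 with the Sin3A hairpin.

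Genes that act beside the 9 were read from 5 lists, which held 97 symbols and 85 measured genes. With shRNA 4, 15 of the 85 passed as higher and 6 as lower, where 6.88% and 4.71% of all probe sets did. With shRNA 5 the counts were 12 and 6 (8.37% and 5.46%), and with both hairpins 10 and 4 (5.4% and 3.4%). With the Sin3A shRNA they were 16 and 14, where 12.2% and 12.6% of all probe sets passed. The shares over all probe sets apply equally to the counts of each list that follow. These lists were drawn up with results of these arrays known, so their counts are descriptions.

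Other LXR targets and partners changed in both directions. Of 18 measured genes, 5 were higher and 2 lower with shRNA 4, and 4 higher and 2 lower with shRNA 5. Their median change was 0.12 and 0.10, beside 0.00 for all probe sets with each hairpin. Scd1, a stearoyl-CoA desaturase and a target of both LXR and the sterol-regulated factor SREBP1, rose by 1.62 ± 0.08 and 1.47 ± 0.08, opposite to Apoe. Its arrays went from 9.62, 9.52 and 9.80 to 11.31, 11.15 and 11.35 with shRNA 4 and to 11.11, 11.13 and 11.11 with shRNA 5. Rxra, the partner receptor of the LXRs, rose by 0.67 and 0.62, lipoprotein lipase (Lpl) by 0.53 and 0.69, and Scd2 by 0.61 and 0.49. Pltp was the one gene of this list lower with both hairpins. With the Sin3A shRNA, 4 were higher and 4 lower with a median of -0.04. Mertk, a receptor for apoptotic cells, rose by 0.74, Ncoa1 by 0.29 and Scd1 by 0.26, and Apod fell by 0.70 and Mlxipl by 0.68. Fasn (0.18; adjusted p = 0.0379) and Scd2 (-0.17; adjusted p = 0.03) passed too, but leaving out any of 5 arrays for Fasn, all but Sin3A replicate 1, and any of the 6 for Scd2 ended the call (up to 0.12 and 0.0992).

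Most of the other lipoprotein receptors and adaptors that passed with a Tet1 hairpin were higher, as Lrp1 was. With shRNA 4, 7 of 18 passed, each as higher, with shRNA 5 6 were higher and 1 lower, and with both 5 were higher. The median of the list was 0.10 and 0.01. Lrp4 rose by 0.69 and 0.62, Lrp12 by 0.66 and 0.66, and Scarb1, the receptor for high-density lipoprotein, by 0.53 and 0.36. Dab1, an adaptor of the receptors for reelin, rose by 0.79 and 0.58, and its call with shRNA 5 (adjusted p = 0.032) was lost without any 1 of the 3 shRNA 5 arrays (0.0592 to 0.12). With the Sin3A shRNA, 6 were higher and 3 lower, with a median of 0.05: Lrp10 rose by 0.61, Scarb1 by 0.57, Dab1 by 0.56 and Lrp4 by 0.53. Dab2, an endocytic adaptor that binds megalin, fell by 0.86 in that knockdown, in which Lrp2 rose. With shRNA 5 Dab2 was the 1 gene of the list that passed as lower, at -0.41 (limma, adjusted p = 0.00807). That call held in all 17 alternatives. With shRNA 4 Dab2 had -0.28, which did not pass (limma, adjusted p = 0.0554). It passed under some alternatives, among them the replicate number as a block in a fit of the scrambled and shRNA 4 arrays (0.0418). Lrp6 changed by -0.25 with the Sin3A shRNA (limma, adjusted p = 0.0111, and 0.0554 without Sin3A replicate 2). In the same knockdown Lrp5 changed by -0.16 (adjusted p = 0.046, lost without any 1 array, with up to 0.167).

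Other apolipoproteins and their enzymes were read next. Of 17 genes, 0 passed with shRNA 4 in the limma fit (2 had an unadjusted p under 0.05), where 6.88% of all probe sets passed as higher and 4.71% as lower. With shRNA 5, where those shares were 8.37% and 5.46%, 1 passed, Clu at 0.25 (adjusted p = 0.0431), a call lost in 12 of 17 alternatives, among them the removal of any array but scrambled replicate 2 and shRNA 5 replicate 3 (up to 0.146). Changes that did not pass lay between -0.30 and 0.12 with shRNA 4 and between -0.18 and 0.09 with shRNA 5. With the Sin3A shRNA, Pcyox1 rose by 0.40, Lcat by 0.38 and Apon by 0.32, and Clu fell by 0.35 and Mttp by 0.25. Among 25 other sterol and phospholipid transporters and handling enzymes, 3 were higher and 1 lower with shRNA 4 (6.88% and 4.71% of all probe sets) and 1 higher and 1 lower with shRNA 5 (8.37% and 5.46%). Nceh1, which releases cholesterol from its esters, rose by 0.52 and 0.65 (adjusted p = 0.0139 with shRNA 4, and 0.0575 without shRNA 4 replicate 1) and fell by 0.45 with the Sin3A shRNA. Abca7, a close relative of Abca1, changed by -0.44 and -0.61 (adjusted p = 0.016 with shRNA 4, lost without scrambled or shRNA 4 replicate 3 at up to 0.0569). With the Sin3A shRNA, 2 of the 25 transporters were higher and 4 lower, where 12.2% and 12.6% of all probe sets were: Abca3 rose by 0.35 and Stard4 by 0.33, Abca2 fell by 0.38 and Nceh1 as above. Npc2 (-0.23) and Abca7 (-0.20) passed at adjusted p = 0.0111 and 0.0192 and lost the call without 1 array (Sin3A replicate 2; 0.0509) and without any 1 of 3 arrays (scrambled replicate 1 or 2 or Sin3A replicate 3; up to 0.0601).

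**Figure D4:**
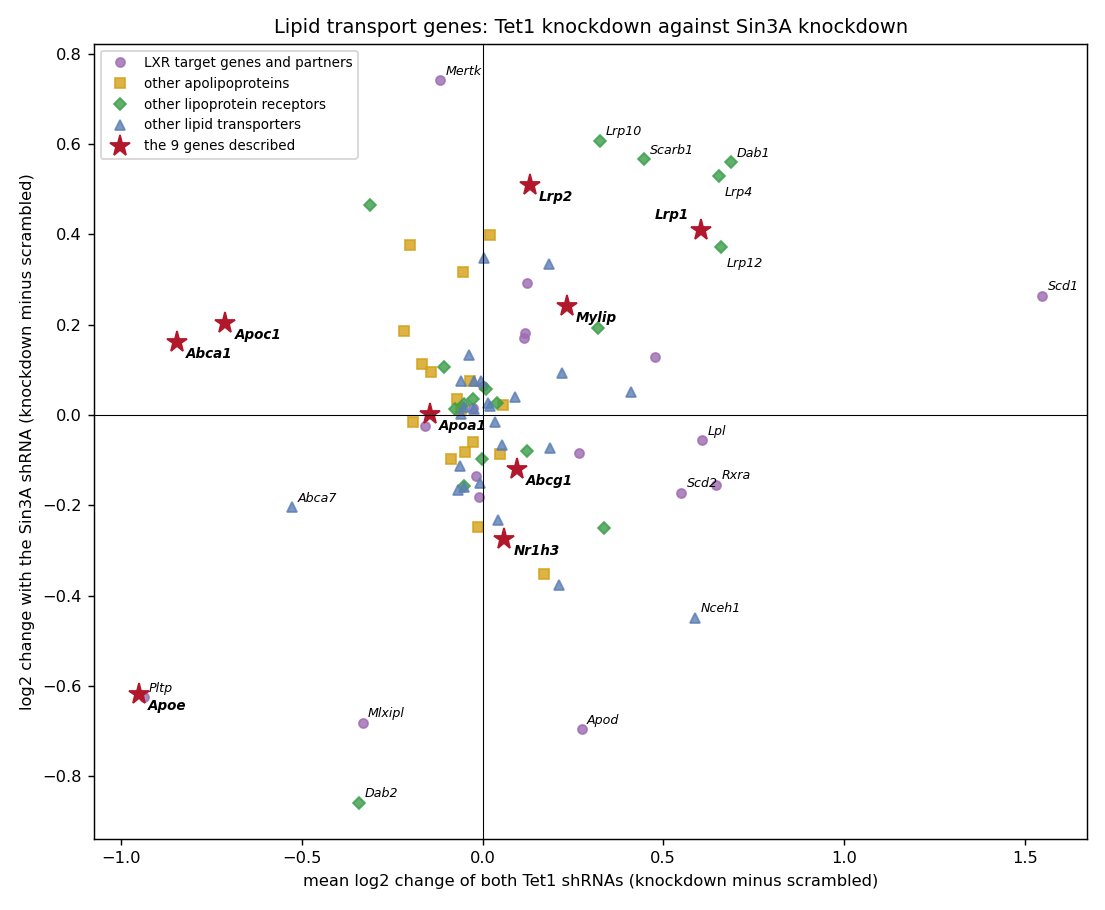
Mean log2 change of both Tet1 hairpins (x axis) against the log2 change with the Sin3A hairpin (y axis), each knockdown minus its own scrambled arrays. Stars are the 9 genes and other symbols the genes of 4 lists (LXR targets, apolipoproteins, receptors, transporters); Pltp lies beside Apoe at the lower left, Abca1 and Apoc1 lie at the left just above 0, and Lrp1 lies near Lrp4 and Lrp12 at the upper right.

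Markers of other cells were read beside these genes, since Apoe, Lrp2 and apolipoproteins are abundant in embryonic endoderm. Of 23 endoderm markers, 10 lay above the median probe set in the scrambled arrays of each set. With both Tet1 hairpins 4 were higher and 1 lower, where 5.4% and 3.4% of all probe sets were. With the Sin3A shRNA 4 were higher and 1, Dab2, was lower, where 12.2% and 12.6% of all probe sets were. Dab2, Cubn, Amn and Apob also stand in the lists above, so these counts share genes with theirs. The mean over the list ran from 6.96 to 7.15 on the scrambled arrays of the Tet1 set. It ran from 7.11 to 7.25 with shRNA 4 and from 7.15 to 7.21 with shRNA 5. In the Sin3A set it ran from 8.05 to 8.11 on the scrambled arrays and from 8.14 to 8.16 with the Sin3A shRNA. This mean covers markers that changed in both directions. Of 15 fibroblast markers, 3 were higher with both Tet1 hairpins and 2 higher and 4 lower with the Sin3A shRNA, with list means of 6.96 to 7.10, 7.08 to 7.17 and 7.05 to 7.16 in the Tet1 set and 8.05 to 8.13 against 7.98 to 8.09 in the Sin3A set. None of the 9 macrophage markers passed in any knockdown (limma; 0, 0 and 2 had an unadjusted p under 0.05 with shRNA 4, shRNA 5 and Sin3A), and their list means ran from 5.02 to 5.26 over the Tet1 set and from 6.20 to 6.33 over the Sin3A set. The part of these markers in the changes of the lipid genes was not tested, and in bulk RNA fewer cells of a type and less RNA per cell cannot be told apart.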

How the data were processed

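The deposited values are log2 expression per Entrez-based probe set, made by the authors with affy, RMA and limma, per the submitters' processing notes; versions, probe set definitions and genome build are not given in the sources used here. They were used as deposited. In the Tet1 set, 49.1% of probe sets held the exact same value (tolerance 0) on at least 2 arrays, against 0 in the Sin3A set; of the 9 genes, Apoa1, Nr1h3 and Lrp1 did, each with equal values inside 1 group, which enters the spread behind their SE. Symbols came from the platform annotation: 18786 probe sets had 1 symbol, 6 several and 2420 none. The 9 Tet1-set arrays and the 6 Sin3A-set arrays were each fitted with 1 mean per group in limma 3.58.1 (R 4.3.3; lmFit, eBayes, two-sided), and all 15 arrays for the difference between effects. P-values were adjusted over all 21212 probe sets (Benjamini-Hochberg), with no filter, and 0.05 was the threshold. The fit was tested on simulated data.

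The members and lists were chosen with earlier results of these data known. From each list, at most 4 higher and 4 lower genes are named by mean absolute change, with every neighbour of Apoe. The ranked genes were those called with both Tet1 hairpins or with the Sin3A hairpin. A few further calls that fall outside this rule (Clu and Dab2 with shRNA 5, Cblc) were named after their values were seen. The 5 genes most and least like Apoe were ranked by Pearson's r over 15 arrays. Deviations of same-numbered scrambled and shRNA 4 arrays correlated at 0.27, 0.52 and 0.17, all above the limit of 0.1. Unlike numbers did too: 0.28 for scrambled replicate 1 with shRNA 4 replicate 3, and 0.16 for scrambled replicate 3 with shRNA 4 replicate 1. Only the arrays numbered 2 were thus matched by number, and the labels give no pairing. The replicate block in a fit of these 2 groups therefore rests on an uncertain pairing. Same-numbered arrays of the other pairs of groups correlated between -0.29 and 0.04, and the numbers do not pair them. Alternatives were median centring, repeated quantile normalization, leaving out the lowest 25% of probe sets, other sample sets, a replicate block, a trended robust variance, leaving out both arrays of the Tet1 set that stood apart (the scrambled and the shRNA 4 array numbered 2) and leaving out each array. Another probe set per gene was also tried; it could change no member, each of which has 1 probe set, and is not counted among the alternatives. Promoter sequences are from RefSeq (GRCm38.p6), which held an entry for 8 of the 10 genes; no coordinates of probes were used.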

Additional observations from a re-analysis of the deposited data

Results flagged for a closer look

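The test of the difference itself set the mean Tet1 effect apart from the Sin3A effect for 4 of the 8 genes other than Apoe. Of these, 1 passed as higher and 3 as lower, where 11.3% and 8.71% of all probe sets did. The sets also differ in their arrays and scale, which cannot be told apart from the hairpins. The difference, mean Tet1 effect minus Sin3A effect, was -1.01 log2 units for Abca1 and -0.91 for Apoc1, and both calls held in all 21 alternatives. It was -0.38 for Lrp2, a call lost in 2 of 21, and 0.33 for Nr1h3, a call lost in 12 of 21. For Apoe it was -0.33, a description, since the Tet1 values of Apoe were part of the choice of genes. Between the 2 Tet1 hairpins, Pltp stood apart by -0.56 (shRNA 5 minus shRNA 4; limma, adjusted p = 0.0243). That call was lost in 9 of 17 alternatives. Pltp is also the gene most like Apoe over the same arrays, and Apoe too was lower with shRNA 5 than with shRNA 4. The p of Pltp does not allow for how the gene was singled out, so its difference is a description. It is no independent support for the values of Apoe.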

How the results depend on the processing

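No member or named gene called in a comparison reversed its sign while called under any alternative, and 2392 of the gene values kept their side of the threshold, 151 lost it and 20 gained it. Except where stated, the counts below include Apoe, whose Tet1 values were part of the choice of genes. They describe how stable the calls were and are no support for the values of Apoe. The shares over all probe sets given above belong to the full fits. The difference between the Tet1 hairpins called none of the 8 genes other than Apoe, in the full fit or in any alternative. In the full fit 4 of the 8 had an unadjusted p under 0.05 (limma), and 0.141% of all probe sets were called. It called 1 gene of the pathway lists (Pltp), and 0 when the third group was left out of the fit, with a replicate block or without both arrays that stood apart; leaving out 1 array gave 0 to 1. Leaving out 1 array gave 2 to 6 genes of the 9 for the difference between the Tet1 and Sin3A effects, where the full fit gave 5 (2 without scrambled replicate 3 of the Tet1 set or without Sin3A replicate 3), and 4 to 5 for Sin3A, where the full fit gave 6. It gave 4 to 5 with shRNA 4, 4 to 5 with shRNA 5 and 4 with both. With the replicate block the counts were 5 for shRNA 4, 5 for shRNA 5 and 0 for the hairpins against each other. They were 5 for Sin3A, 4 for the difference between effects and 4 for both hairpins. Outside the scrambled and shRNA 4 groups the numbers do not pair the arrays. A call lost there is not read as a weaker effect. Within the scrambled and shRNA 4 groups the pairing is uncertain, so a changed call is not read as a change of effect either. With the replicate block in a fit of those 2 groups alone, chosen after seeing the data, 5 of the 9 genes were again called and 22 of the pathway lists, where the full fit called 21; of the genes named, Relb and Cblc lost their call with shRNA 4, Dab2 gained one, and no other call changed. The number of arrays, 3 a group, limits the precision.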
